A study of Mus musculus with 6 samples.

Results

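The genes described here encode the proteases that cut the extracellular matrix and cell surface proteins, together with their inhibitors. They are matrix metalloproteinases (MMPs), tissue inhibitors of metalloproteinases (TIMPs) with RECK, ADAMs, ADAMTS proteases, ADAMTS-like proteins and genes of the plasminogen system. A list of 34 genes was chosen from these families with earlier results of these data known. Of these, 32 were represented by a probe set annotated with exactly 1 gene symbol, among 19938 genes tested, and for Adamts9 and Adamtsl1, which had several, the one that was brightest on average was taken. Mmp15 and Serpine2 were not analysed here.

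The cells were lung endothelial cells (lECs) of C57BL/6 mice. Both groups had been stably transfected with the pcDNA3.1/Hygro(-) vector, which was empty in the control cells and carried full-length mouse L1CAM in the other group, and both were grown for 4 days to confluence before total RNA was taken. Each group had 3 Affymetrix arrays, which the labels call biological replicates. The labels do not say whether each transfectant was a pool or a clone, so a p-value reflects only how much replicate cultures varied, and a difference between the groups cannot be told apart from one between the transfectants. The values are RMA expression values on the log2 scale, in which a difference of 1 is a doubling.

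MMPs are zinc-dependent endopeptidases that degrade collagens and other matrix proteins, and TIMPs block their catalytic site. ADAMs are membrane-bound relatives that release the outer part of surface proteins, and ADAM10 and ADAM17 are known to cut L1CAM itself near the membrane. ADAMTS proteases are secreted and process proteoglycans and other matrix proteins, and ADAMTS-like proteins share their accessory domains but lack the catalytic one. In endothelial cells the urokinase and tissue plasminogen activators turn plasminogen into plasmin, which also cleaves matrix and L1CAM.

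L1cam read 6.50, 6.77 and 7.31 on the control arrays and 10.49, 10.60 and 10.73 on the L1CAM arrays, so each array lay on the side its label names. L1CAM replicate 1 stood apart: across genes it correlated with the other L1CAM arrays at 0.9948 and 0.9951, against 0.9986 between those and 0.9982 to 0.9986 among the control arrays. With the control arrays it correlated at 0.9935 to 0.9952, about as closely as with its own group, where L1CAM replicates 2 and 3 gave 0.9878 to 0.9903. The 12 endothelial markers were all above the mean of the array medians (6.57), with a list mean of 11.54 to 11.56 on control and 11.45 to 11.48 on L1CAM arrays. Vwf and Cldn5, with means of 6.84 and 6.97 over the 6 arrays, lay only a little above 6.57. Cldn5 was the marker called lower (-0.22, limma adjusted p = 0.0446), a call kept in 1 of the 6 fits that left out an array. In 9 of these 12 markers all L1CAM arrays lay below the control arrays, where this held for 16.0% of all genes, and whether this bears on the genes below was not tested. None of 11 fibroblast and mural, 8 leukocyte and 7 epithelial markers was called. Their list means spanned 6.25 to 6.28 on control and 6.19 to 6.30 on L1CAM arrays for the fibroblast and mural list. For the leukocyte list they spanned 6.39 to 6.55 and 6.31 to 6.53, and for the epithelial list 5.67 to 5.74 and 5.70 to 5.80. Of these 26 markers 8 had a mean above the array medians, 5 fibroblast and mural, 2 leukocyte and 1 epithelial. They were Pdgfra, Col1a1, Col1a2, Col3a1, Myh11, the macrophage-associated Cd68 and Lyz2, and the keratin Krt8. Cd68 measured 12.23 ± 0.14 on control and 12.07 ± 0.12 on L1CAM arrays (SD, n = 3), and Lyz2 8.24 ± 0.53 and 7.77 ± 0.64. The pan-leukocyte marker Ptprc and the epithelial marker Epcam lay below the medians.

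Promoter sequences are shown first for 3 members whose level differed between the groups, Adamts9, Mmp14 and Reck, because these are the regulatory stretches at the genes with the results below. They come from RefSeq, build GRCm38.p6, and run from 250 bases before to 50 bases after an annotated start, 5′ to 3′ on the gene's strand. The RefSeq table held 23 such promoters for 21 of the 32 members, and none for Adamtsl1, the member with the largest difference. Capitals mark matches, on either strand, to the AP-1 motif TGANTCA, the PEA3 motif AGGAAG and the GC box GGGCGG.
Adamts9 at chr6:92943485-92943784, minus strand: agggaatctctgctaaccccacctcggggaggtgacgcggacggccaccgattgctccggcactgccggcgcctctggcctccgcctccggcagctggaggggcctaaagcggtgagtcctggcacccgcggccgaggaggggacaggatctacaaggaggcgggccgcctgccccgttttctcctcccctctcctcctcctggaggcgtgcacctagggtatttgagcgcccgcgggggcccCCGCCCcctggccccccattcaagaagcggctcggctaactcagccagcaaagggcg
Mmp14 at chr14:54431348-54431647, plus strand: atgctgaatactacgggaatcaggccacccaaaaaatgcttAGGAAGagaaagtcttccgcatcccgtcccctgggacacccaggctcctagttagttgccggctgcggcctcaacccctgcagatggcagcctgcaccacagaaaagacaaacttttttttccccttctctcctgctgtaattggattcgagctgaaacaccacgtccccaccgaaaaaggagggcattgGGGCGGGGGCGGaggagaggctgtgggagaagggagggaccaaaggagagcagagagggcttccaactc
Reck at chr4:43875280-43875579, plus strand: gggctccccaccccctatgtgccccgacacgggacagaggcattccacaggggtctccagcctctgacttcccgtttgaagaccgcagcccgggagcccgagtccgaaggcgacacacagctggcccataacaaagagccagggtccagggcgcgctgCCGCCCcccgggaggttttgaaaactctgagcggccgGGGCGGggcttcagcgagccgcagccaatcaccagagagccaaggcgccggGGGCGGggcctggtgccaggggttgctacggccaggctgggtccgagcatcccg

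The Adamts9 promoter held 1 GC box, on the minus strand. In the Mmp14 promoter 2 GC boxes stood end to end, beginning 19 and 13 bases before the start, with a PEA3 match beginning 209 bases before it. The Reck promoter held 3 GC boxes, beginning 92, 55 and 4 bases before the start. A GC box was found in 16 of the 23 member promoters, against 35.7% of all 32851 promoters of this length. A PEA3 match was found in 11 of the 23, against 35.4%. Whether these shares differ was not tested. A match is a description of the letters and not a binding site.

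The AP-1 motif, long known from promoters of inducible MMPs, occurred in 5 of the 23 member promoters, against 7.81% of all promoters. Whether these shares differ was not tested. The windows below show each match in capitals with 17 bases on either side, in the same build and all on the plus strand. They bring together 3 MMP genes that lie on chromosome 9, and 2 other members.
Mmp13 at chr9:7272462-7272502: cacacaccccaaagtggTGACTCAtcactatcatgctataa
Mmp3 at chr9:7445759-7445799: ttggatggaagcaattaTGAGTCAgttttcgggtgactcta
Mmp10 at chr9:7502262-7502302: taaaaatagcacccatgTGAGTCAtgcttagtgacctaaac
Plaur at chr7:24462397-24462437: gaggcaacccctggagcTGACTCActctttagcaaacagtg
Adam19 at chr11:46055836-46055876: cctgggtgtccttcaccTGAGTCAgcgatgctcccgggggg

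The matches began 35, 46, 63, 69 and 131 bases before the annotated start in Mmp13, Mmp3, Mmp10, Plaur and Adam19. The Adam19 window comes from 1 of 3 annotated starts. Only Adam19 of these 5 genes was called, and it was lower in L1CAM cells. Mmp3, Mmp10 and Mmp13 had both group means below the array medians.

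Of the 32 measured members, 5 rose and 6 fell in L1CAM cells at a limma adjusted p under 0.05, and 21 were not called. This is 34.4% of the members, where 15.0% of all genes tested were called (6.85% higher and 8.19% lower). The arrays of the groups did not overlap in 17 members, where this held for 34.6% of all genes. Among genes whose mean lay above the array medians 24.0% were called, and 11 of 26 members. The median difference of the members was 0.08, against 0.02 over all genes. The rises were Adamtsl1, Adamts9, Adamts12, Mmp11 and Timp3, and the falls Mmp14, Reck, Adamts7, Adam19, Adamtsl4 and Plau. Of 35 measured relatives in these families that were not on the list, 5.7% were called. The members were named with results of these data known, so the share of the members is a description. It depended on single arrays, with 2 to 9 members higher and 4 to 7 lower when 1 array was left out. Without L1CAM replicate 1 the counts were 9 and 7, where 24.8% of all genes were called, and without control replicate 3 they were 2 and 4, where 5.34% were. Without L1CAM replicate 2, L1CAM replicate 3 or control replicate 2, 3 members were called higher in each fit, and 5, 4 and 4 lower. These fits called 6.85%, 6.21% and 5.18% of all genes, both directions together.

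**Figure D1:**
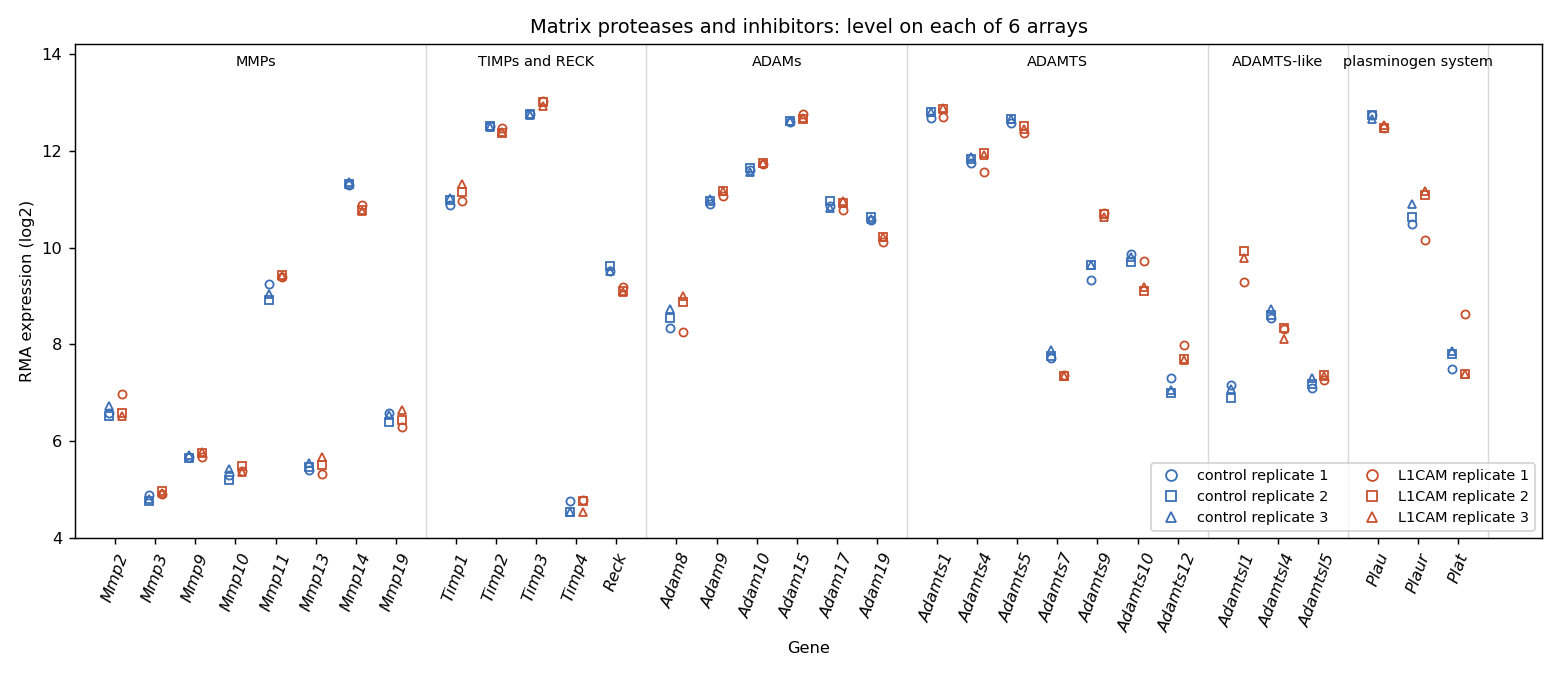
RMA expression (log2, vertical axis) of the 32 measured members by family, with control arrays in blue, L1CAM arrays in red and the symbol giving the replicate. Adamtsl1 and Adamts9 show the widest gaps between the groups, and L1CAM replicate 1 (red circle) lies away from replicates 2 and 3 in Plat and Plaur.

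Among the MMPs, the membrane-anchored collagenase Mmp14 was lower and Mmp11 (stromelysin-3) higher in L1CAM cells. Mmp14, which activates pro-MMP2 at the cell surface, read 11.29, 11.31 and 11.36 on the control arrays and 10.88, 10.78 and 10.75 on the L1CAM arrays. All L1CAM arrays lay below all control arrays, and the spread within each group was small beside the gap. The difference was -0.52 (SE 0.06; 1.43-fold lower; limma adjusted p = 0.002), and it was called whichever array was left out.

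Mmp11, which acts mainly on protease inhibitors and matrix-bound factors rather than on fibrillar collagen, read 9.25, 8.92 and 9.04 on the control arrays. On the L1CAM arrays it read 9.39, 9.43 and 9.41. The groups did not overlap, but control replicate 1 lay near the L1CAM arrays, and the difference of 0.34 (SE 0.09) had a limma adjusted p of 0.0373. The call was lost without control replicate 2 or 3 and without L1CAM replicate 2 or 3, where the limma adjusted p lay between 0.111 and 0.125.

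The other 6 measured MMPs were not called, and 5 of them, the stromelysins Mmp3 and Mmp10, the gelatinase Mmp9, the collagenase Mmp13 and Mmp19, had both group means below the array medians. Such probe sets were not shown to be above background, so little can be read from their small differences, which ran from -0.05 for Mmp19 to 0.12 for Mmp3. Mmp3 read 4.89, 4.78 and 4.81 against 4.91, 4.98 and 4.94 on the L1CAM arrays, which lay just above the control arrays (limma adjusted p = 0.223). Mmp2, the gelatinase activated through Mmp14, read 6.59, 6.53 and 6.74 on the control arrays and 6.97, 6.59 and 6.52 on the L1CAM arrays. The Mmp2 groups overlapped, and only L1CAM replicate 1 lay above the control range. Its group means of 6.62 (control) and 6.69 (L1CAM) lay close to the mean of the array medians (6.57). Mmp2 too was not shown to be above background.

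The MMP inhibitors moved in both directions. Timp3, the TIMP that binds to matrix and also inhibits ADAM17 and ADAMTS proteases, read 12.75, 12.75 and 12.74 on the control arrays and 13.02, 13.01 and 12.93 on the L1CAM arrays. It was 1.18-fold higher (0.24, SE 0.05; limma adjusted p = 0.0249). The arrays were tightly grouped and did not overlap, yet with an array fewer the call was kept only without L1CAM replicate 1.

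Reck, a membrane-anchored protein that inhibits several MMPs and takes part in Wnt7 signalling in vessels, fell. It read 9.51, 9.61 and 9.52 on the control arrays and 9.19, 9.11 and 9.08 on the L1CAM arrays. All L1CAM arrays were lower, with a mean difference of -0.42 (SE 0.06, 1.33-fold) and a limma adjusted p of 0.00489, and the call held whichever array was left out.

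Timp1 and Timp2, both soluble inhibitors, were not called. Timp1 read 10.88, 10.98 and 11.02 on the control arrays and 10.97, 11.14 and 11.32 on the L1CAM arrays, with L1CAM replicate 1 inside the control range. Without that replicate its difference was 0.27 (limma adjusted p = 0.035), against 0.18 (limma adjusted p = 0.242) with it. Timp2, which also serves as the bridge between pro-MMP2 and MMP14, read 12.50, 12.50 and 12.48 against 12.47, 12.37 and 12.38. Its difference of -0.08 had an unadjusted 95% interval of -0.21 to 0.04. Timp4 lay below the array medians on every array, between 4.54 and 4.80, and its groups overlapped.

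**Figure D2:**
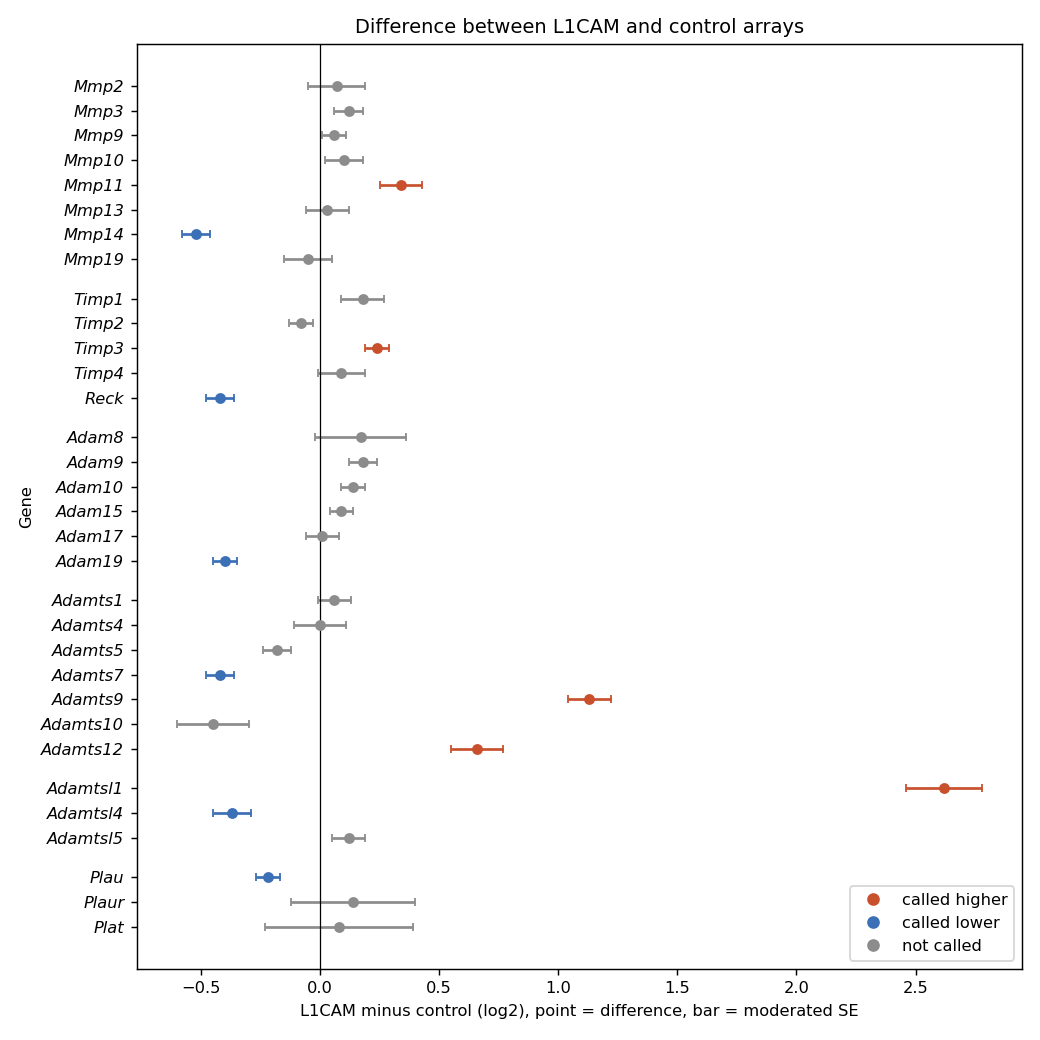
Difference L1CAM minus control (log2, horizontal axis) for each measured member, with the moderated standard error as a bar and the colour giving the call. Adamtsl1 (2.62) and Adamts9 (1.13) exceed 1, and the called falls lie between -0.52 and -0.22.

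Of the 6 ADAMs 1 was called, Adam19, known for shedding neuregulins and for its role in heart development. It read 10.56, 10.62 and 10.59 on the control arrays and 10.12, 10.21 and 10.22 on the L1CAM arrays. The L1CAM arrays were all lower, and the mean difference was -0.40 (SE 0.05; 1.32-fold; limma adjusted p = 0.00413). The call held whichever array was left out.

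The sheddases of L1CAM itself were not called. Adam10 read 11.61, 11.64 and 11.55 on the control arrays and 11.73, 11.74 and 11.75 on the L1CAM arrays. Its groups did not overlap, and the difference of 0.14 had a limma adjusted p of 0.122 and an unadjusted 95% interval of 0.02 to 0.26. Of the alternative fits, only a variance prior that follows intensity called Adam10 (limma adjusted p = 0.0456), and that fit also added Adam9 and Adamts5. Adam17, the tumour necrosis factor converting enzyme, read 10.85, 10.95 and 10.82 against 10.77, 10.92 and 10.95. The Adam17 groups overlapped throughout, and the unadjusted 95% interval of the difference was -0.15 to 0.17.

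Adam9 and Adam15, both expressed by endothelial cells and able to bind integrins, had L1CAM arrays above the control arrays without a call. Adam9 read 10.96 ± 0.05 (SD, n = 3) on the control arrays and 11.07, 11.17 and 11.17 on the L1CAM arrays, a difference of 0.18 (limma adjusted p = 0.0779). It was called without L1CAM replicate 1 (limma adjusted p = 0.0323). Adam15 read 12.59, 12.61 and 12.62 against 12.76, 12.66 and 12.67, a difference of 0.09. Adam8, best known from leukocytes, read 8.33, 8.55 and 8.73 on the control arrays and 8.25, 8.87 and 9.01 on the L1CAM arrays. Its L1CAM replicate 1 was below the control arrays and replicates 2 and 3 above them, and without replicate 1 the difference was 0.40 (limma adjusted p = 0.034).

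The widest differences lay in the ADAMTS and ADAMTS-like genes. Adamtsl1, or punctin-1, a secreted matrix glycoprotein without protease activity, rose most of all members. It read 7.17, 6.89 and 7.08 on the control arrays and 9.28, 9.92 and 9.79 on the L1CAM arrays. This is a rise of 2.62 (SE 0.16; 6.13-fold; limma adjusted p = 0.000225). The control mean of 7.05 lay only a little above the mean of the array medians (6.57). It was not shown to be above background, so the fold value is approximate. The gene ranked 9 among all 19938 genes by the size of its rise. L1CAM replicate 1 was the lowest of its group but far above every control array. The second probe set read 6.87, 6.48 and 6.72 against 8.35, 9.19 and 8.89, a difference of 2.12, with control arrays on both sides of 6.57.

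Adamts9, which cleaves versican and is needed in vessels and heart, rose by 1.13 (SE 0.09; 2.18-fold; limma adjusted p = 0.000553). It read 9.34, 9.65 and 9.65 on the control arrays and 10.71, 10.69 and 10.62 on the L1CAM arrays, without overlap. The gene had 6 probe sets, and the L1CAM arrays lay above the control arrays in each. Their differences ran from 0.94 to 1.52, so the probe set used here gave the second smallest. Probe sets of 1 gene share the RNA of the same arrays and are not replicates.

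**Figure D3:**
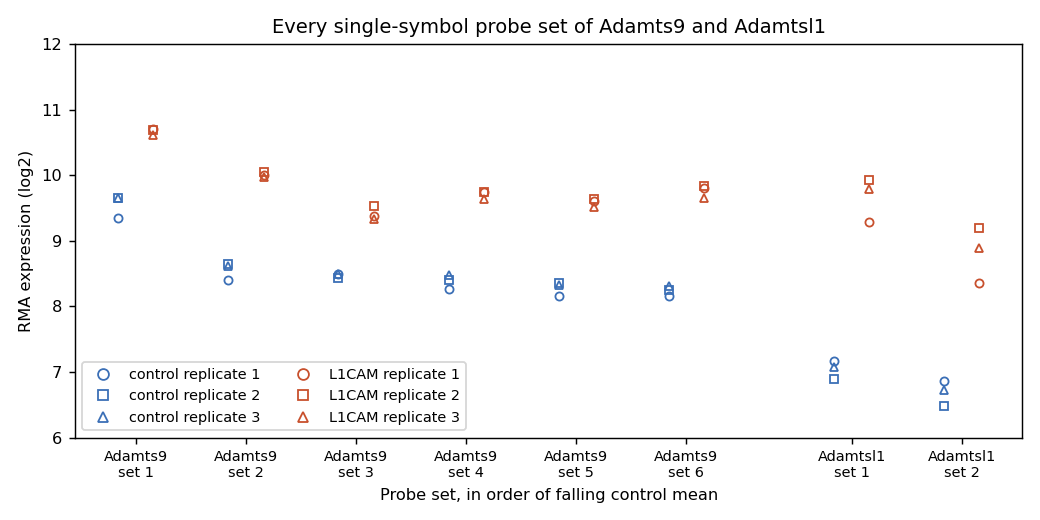
RMA expression (log2, vertical axis) of the 6 probe sets of Adamts9 and the 2 of Adamtsl1, with control arrays in blue and L1CAM arrays in red. In each probe set all L1CAM arrays lie above all control arrays, with differences of 0.94 to 1.52 for Adamts9 and of 2.12 and 2.62 for Adamtsl1.

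Adamts12, which can cleave cartilage oligomeric matrix protein, also rose. It read 7.31, 7.00 and 7.06 on the control arrays and 7.99, 7.69 and 7.67 on the L1CAM arrays. The rise was 0.66 (SE 0.11; 1.58-fold), and its limma adjusted p of 0.00948 became 0.0515 without control replicate 3. Adamts7, its closest relative in the family and likewise a protease of cartilage oligomeric matrix protein, fell. It read 7.72, 7.77 and 7.88 on the control arrays and 7.38, 7.35 and 7.35 on the L1CAM arrays. The difference was -0.42 (SE 0.06, 1.34-fold; limma adjusted p = 0.00459), and the call held whichever array was left out. These related proteases were thus called in opposite directions.

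The aggrecanases and versicanases Adamts1, Adamts4 and Adamts5 were not called. Adamts1, an anti-angiogenic family member, read 12.68, 12.79 and 12.79 against 12.69, 12.86 and 12.87. Adamts4 read 11.74, 11.83 and 11.87 against 11.55, 11.96 and 11.91, with L1CAM replicate 1 below and replicates 2 and 3 above the control arrays. Adamts5, which lies near Adamts1 on chromosome 16, read 12.57, 12.65 and 12.65 against 12.36, 12.51 and 12.45. Its L1CAM arrays all lay below the control arrays, with a difference of -0.18 (limma adjusted p = 0.0915).

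Adamts10, a fibrillin-binding member, read 9.86, 9.71 and 9.80 on the control arrays and 9.73, 9.10 and 9.19 on the L1CAM arrays. L1CAM replicate 1 lay inside the control range and the other L1CAM arrays well below it. The difference was -0.45 (SE 0.15) with a limma adjusted p of 0.0911, and -0.65 without L1CAM replicate 1, with a limma adjusted p of 0.000288.

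Of the other ADAMTS-like genes, Adamtsl4, which binds fibrillin and supports microfibrils, fell. It read 8.55, 8.61 and 8.73 on the control arrays and 8.31, 8.35 and 8.11 on the L1CAM arrays. The difference was -0.37 (SE 0.08, 1.30-fold; limma adjusted p = 0.0219). The call was lost without control replicate 2 or 3 or L1CAM replicate 3. Adamtsl5, another fibrillin-binding protein, read 7.10, 7.19 and 7.30 against 7.26, 7.36 and 7.34. Its groups overlapped, and the difference of 0.12 was not called.

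In the plasminogen system the protease, its receptor and the tissue activator gave different patterns. Plau, the urokinase plasminogen activator, read 12.73, 12.73 and 12.65 on the control arrays and 12.46, 12.47 and 12.52 on the L1CAM arrays. The difference was -0.22 (SE 0.05; 1.16-fold lower; limma adjusted p = 0.0347), without overlap. With 1 array left out, the call was kept only without L1CAM replicate 1.

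Plaur, the surface receptor that holds urokinase at the cell edge, read 10.48, 10.63 and 10.89 on the control arrays and 10.15, 11.09 and 11.17 on the L1CAM arrays. L1CAM replicate 1 was below all control arrays and replicates 2 and 3 above them. The difference of 0.14 was not called with all arrays (limma adjusted p = 0.777), and was 0.47 without L1CAM replicate 1 (limma adjusted p = 0.0185). Plat, the tissue plasminogen activator that endothelial cells secrete to dissolve fibrin, showed the reverse order. It read 7.50, 7.81 and 7.86 on the control arrays and 8.62, 7.40 and 7.40 on the L1CAM arrays. Replicate 1 was above every control array and replicates 2 and 3 were below them. The difference was 0.08 with all arrays and -0.32 without L1CAM replicate 1, and neither passed the test (limma adjusted p = 0.896 and 0.057).

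**Figure D4:**
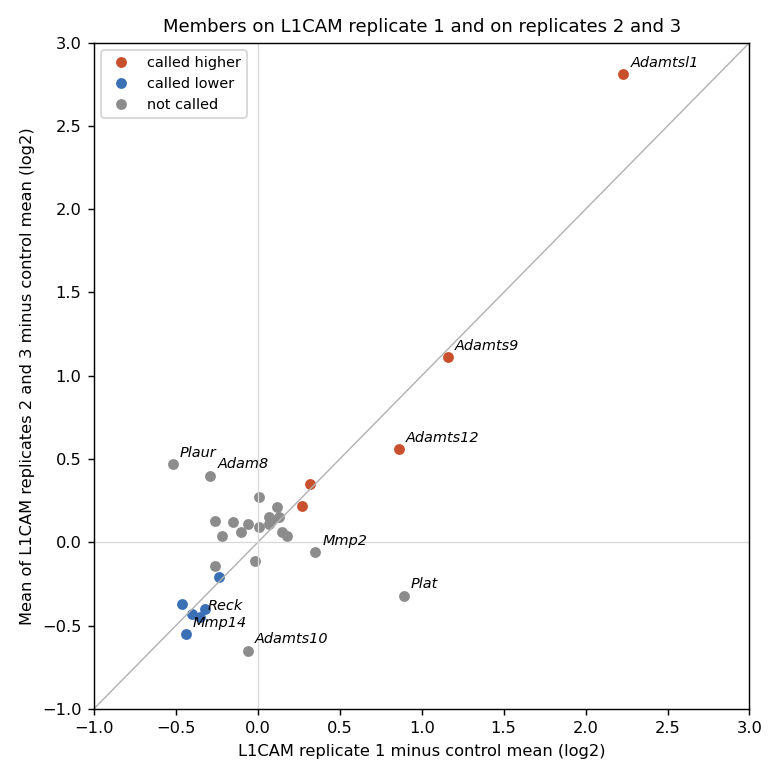
Each member's level on L1CAM replicate 1 (horizontal axis) and on the mean of L1CAM replicates 2 and 3 (vertical axis), both minus the control mean (log2), with the diagonal marking equal values and colour giving the call. Both axes share the control mean. The 11 called members, chosen by a test on these same arrays, have the same sign on both axes. Plat (0.89 and -0.32) and Plaur (-0.52 and 0.47) have opposite signs.

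All 11 called members had the same direction on L1CAM replicate 1 as on replicates 2 and 3. They had been picked by a test on these same arrays and their groups did not overlap. The shared direction therefore followed from the choice and is no separate support. All 11 were also called without replicate 1, in a fit that called 24.8% of all genes against 15.0% with all arrays. Adamtsl1 lay 2.23 above the control mean on replicate 1 and 2.81 above it on the mean of replicates 2 and 3. Adamts12 lay higher on replicate 1, at 0.86 against 0.56. The 5 members that gained a call when replicate 1 was left out were Adam8, Adam9, Adamts10, Plaur and Timp1. What set this array apart was not tested.

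The remaining genes of these families were mostly dim. Of 35 measured relatives, 2 rose and 0 fell, or 5.7%, beside 15.0% of all genes. The relatives had a median difference of 0.02, and 26 had both group means below the array medians. The rises were Adamts6 (0.27, limma adjusted p = 0.0284) and Mmp24 (0.21, limma adjusted p = 0.0435), both below the array medians in both groups. Each was called in 1 of the 6 fits that left out an array.

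A further list held 23 measured genes for partners of the plasminogen system and of coagulation, and for other serpins. Of the 23, 2 rose and 1 fell, or 13.0%, beside 15.0% of all genes. Thbd, thrombomodulin, the endothelial receptor that turns thrombin towards activation of protein C, read 11.53, 11.37 and 11.45 against 11.93, 12.13 and 12.15. It rose by 0.62 (SE 0.08; limma adjusted p = 0.00328). Serpinh1, the collagen chaperone HSP47, rose by 0.47 (limma adjusted p = 0.00865). Tfpi, the inhibitor of the tissue factor pathway, fell by 0.25 (limma adjusted p = 0.0266), a call kept in 1 of the 6 fits with an array fewer.

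Of 33 activators, cofactors and trafficking partners of these proteases, 2 rose and 3 fell, or 15.2%, beside 15.0% of all genes. Rhbdf2, the inactive rhomboid iRhom2 that brings ADAM17 to the cell surface, read 8.23, 8.18 and 8.28 on the control arrays and 9.04, 9.34 and 9.34 on the L1CAM arrays. It rose by 1.01 (SE 0.09; limma adjusted p = 0.000779), without overlap, beside an Adam17 level that was not called. Its paralog Rhbdf1 differed by 0.02 and was not called. Cd44, the hyaluronan receptor that also docks MMPs, rose by 1.11 (SE 0.12; limma adjusted p = 0.00141).

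Bmp1, the procollagen C-proteinase, fell by 0.97 (SE 0.15; limma adjusted p = 0.00719). It read 9.82, 9.76 and 9.73 on the control arrays and 9.20, 8.59 and 8.61 on the L1CAM arrays, with replicate 1 between the control arrays and the other L1CAM arrays. Anpep, aminopeptidase N, fell by 0.53 from a control mean already below the array medians. Tspan14, a tetraspanin that escorts ADAM10, fell by 0.30 (limma adjusted p = 0.0115), and lost its call without control replicate 2 or 3 or L1CAM replicate 3. Furin, which removes the inhibitory prodomain of MMP14 and ADAMs, differed by -0.08 and was not called.

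Of 14 measured genes for enzymes that cut L1 or its membrane stub, and for related genes, 0 rose and 5 fell, or 35.7%. Of all genes 15.0% were called, 8.19% lower, and of those with a mean above the array medians 24.0% were called. Among the 14, 2 had both group means below these medians. The list includes Adam10 and Adam17. Aph1b, a subunit of gamma-secretase, the enzyme that cuts membrane stubs after shedding, read 8.70, 8.73 and 8.80 against 8.21, 7.95 and 7.82. It fell by 0.75 (SE 0.10; limma adjusted p = 0.00363). Aph1c, a near-identical mouse copy, fell by 0.50 (limma adjusted p = 0.00621), but probes of these copies may read both. Psen2, a catalytic subunit of the same complex, fell by 0.41 (limma adjusted p = 0.0113), a call lost without control replicate 3 or L1CAM replicate 3.

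The other subunits Ncstn (0.04), Aph1a (0.08) and Psenen did not pass, with limma adjusted p between 0.388 and 0.974. Klk8, neuropsin, a protease known to process L1 in brain, fell by 0.55 (limma adjusted p = 0.00614). Bace2 fell by 0.41 (limma adjusted p = 0.0151) and was called in 1 of the 6 fits with an array fewer. Its relative Bace1, known to cleave the related protein CHL1, read 9.63, 9.47 and 9.63 against 9.55, 9.20 and 9.20. Bace1 differed by -0.26 (limma adjusted p = 0.144), and by -0.37 without L1CAM replicate 1 (limma adjusted p = 0.00483). Plg, plasminogen itself, lay below the array medians and differed by 0.02. Pcsk5 (-0.01) and Ctsd (-0.07) were not called.

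**Figure D5:**
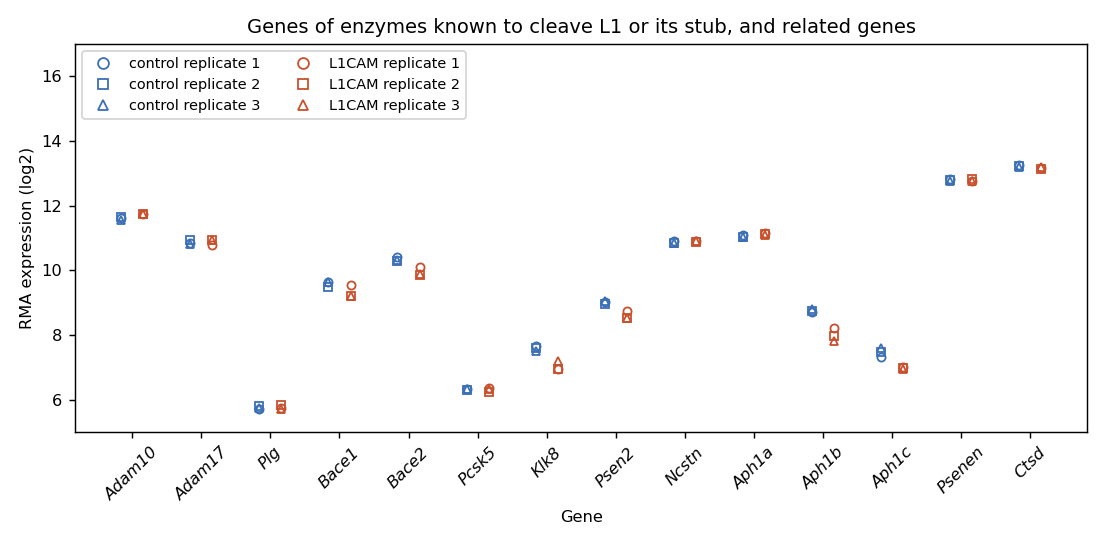
RMA expression (log2, vertical axis) of 14 genes for enzymes that cut L1 or its membrane stub and for related genes, with control arrays in blue and L1CAM arrays in red. Bace2, Klk8, Psen2, Aph1b and Aph1c have all L1CAM arrays below the control arrays and are called lower, whereas Adam17 overlaps.

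The last list held 36 measured genes for substrates of ADAMs and ADAMTS proteases and for related genes, such as the hyaluronan synthases. In this list 7 rose and 2 fell, or 25.0%, beside 15.0% of all genes. The rises included the EGF-family ligands Hbegf (0.76), Nrg1 (0.75) and Ereg (0.62), N-cadherin Cdh2 (0.66), the Notch ligand Dll4 (0.63) and the interleukin-6 receptor Il6ra (0.60). Of these, Nrg1, Dll4 and Il6ra were called whichever array was left out, while Cdh2 kept its call in 2 of these 6 fits and Hbegf and Ereg in 1. Ltbp1, which tethers latent TGF-beta to matrix, fell by 0.59 (limma adjusted p = 0.00668), and the tumour necrosis factor receptor Tnfrsf1a fell by 0.23, a call kept in 1 of the 6 fits. Vcan, the versican cleaved by Adamts9, read 4.78 to 4.93 on the control and 4.77 to 4.94 on the L1CAM arrays, below the array medians.

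Counted once each, 13 of the 134 measured partner genes rose and 11 fell, or 17.9%, close to the 15.0% of all genes. With 1 array left out, 8 to 17 were higher and 6 to 17 lower. Without L1CAM replicate 1 the counts were 17 and 17, or 25.4%, beside 24.8% of all genes. Without L1CAM replicate 3 they were 8 and 6, and without control replicate 3 also 8 and 6, or 10.4%, beside 6.21% and 5.34% of all genes. Without L1CAM replicate 2 the counts were 8 higher and 8 lower, and without control replicate 2 they were 9 and 7. Each is 11.9%, beside 6.85% and 5.18% of all genes. In cultures measured in bulk, fewer cells that express a gene and less of its RNA per cell cannot be told apart, and no value here measures protease protein or activity.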

How the data were processed

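The deposited values were log2 expression values per probe set, which the authors made in Affymetrix Expression Console 1.1 by RMA (background correction, normalization between arrays and summary of probes), according to the submitters' processing notes. Its settings and the array's genome build were not given in the sources used here. The table held 35512 probe sets, of which 21789 had 1 gene symbol in the platform annotation, 1621 had several and 12102 were not listed. Array medians lay between 6.55 and 6.58, and 3 arrays per group limit the precision.

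Groups were compared in limma 3.58.1 (lmFit, then eBayes; R 4.3.3), and the model held the group alone. Tests were two-sided, with Benjamini-Hochberg adjustment over 19938 genes and a threshold of 0.05. SE is the moderated standard error. The scripts were tested on simulated data. All members were named, with up to 6 called genes per partner list and direction. Members and lists were chosen with earlier results of these data known. Alternatives covered normalization, centring, a filter on dim genes, probe set choice, variance model, replicate block and leaving out each array.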

Additional observations from a re-analysis of the deposited data

How the results depend on the processing

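Quantile normalization again, medians set to 0 and averaging the probe sets of each gene all kept the same 11 called members, and an intensity trend and the filter on dim genes kept them and added 3 and 1, in fits that called 16.3% and 30.0% of all genes against 15.0%. With that filter 12 of 26 members were called. An ordinary linear model called 2 members higher and 4 lower, and 2 partner genes higher and 2 lower, with 2.91% of all genes called, and lost Adamts12, Adamtsl4, Mmp11, Plau and Timp3. Same-numbered arrays did not deviate together (correlations -0.10, -0.10 and -0.03). The fit with a replicate block called 3 members higher and 4 lower, losing Adamtsl4, Mmp11, Plau and Timp3, and 12 and 11 partner genes, with 10.4% of all genes called. With each array left out in turn, 2 to 9 members were higher and 4 to 7 lower, and 8 to 17 partner genes higher and 6 to 17 lower. Of the called members, Adamtsl1, Adamts9, Mmp14, Reck, Adam19 and Adamts7 kept their calls in all 6 of these fits and with the block. Uncalled members whose sign changed ranged from -0.06 to 0.16 for Mmp2, -0.06 to 0.12 for Mmp13, -0.14 to 0.04 for Mmp19 and -0.03 to 0.06 for Adam17. The ranges were -0.08 to 0.13 for Adamts4, -0.05 to 0.47 for Plaur and -0.32 to 0.29 for Plat. The cause was not tested beyond the fewer arrays of each fit. The probe sets of Adamts9 and Adamtsl1, tested each on its own as an alternative chosen after seeing the data, were all called higher. Probe sets below the array medians were not shown to be above background.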
